A study of Mus musculus with 52 samples.

Results

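The Speer4 gene cluster lies on mouse chromosome 5 (build mm10), around 15 to 16 Mb. It was described here through 8 listed genes, of 55450 annotated genes, and through every peak whose midpoint fell between 14 and 17 Mb in 8 chromatin immunoprecipitation (ChIP-seq) peak lists. Of the genes, 7 belong to the Speer4 type: Speer4c, Speer4d, Gm17019, Gm21149, Gm21190, Gm21083 and 4930572O03Rik. The eighth, Cacna2d1, is the neighbour on the distal side. The members were chosen by the density of SmcHD1 peaks in wild-type cells. The density, spacing and scores of those peaks are therefore given as a description, without a test.

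The study profiled SmcHD1, the insulator protein CTCF and the cohesin subunit Rad21 in female mouse embryonic fibroblasts (MEFs), grown as clones from F2 animals of the FVB strain and Mus musculus castaneus. The 8 lists merge 24 of 52 labelled libraries. Wild type (wt) was the clone Wt2A1, with 3 libraries each for SmcHD1 and CTCF and 2 for Rad21. The germline mutant (mut) was the clone Mut5A6, homozygous for the MommeD1 null allele of SmcHD1, with the same numbers of libraries. The somatic knockout (somKO) was made with CRISPR in the clones A3-3 and D4, which came from another wild-type clone, wt1A2, with 2 FVB alleles and 1 castaneus allele of SmcHD1, and both are triploid. The somKO lists merge 4 libraries each for CTCF and Rad21, 2 from each clone, and no SmcHD1 list of somKO was analysed here. So wt and mut are single clones, and somKO differs from wt in its parental clone as well as in SmcHD1. The lists hold no expression values, so the fibroblast label could not be checked against marker genes.

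Speer genes encode a rodent family of glutamate-rich proteins that were first described in the germ cells of the testis, and the Speer4 members stand in tandem on chromosome 5. SmcHD1 is a non-canonical member of the structural maintenance of chromosomes family and is known for silencing the inactive X chromosome and some clustered autosomal genes. CTCF binds DNA through a long zinc-finger motif, and cohesin, of which Rad21 is the cleavable subunit, is often held at such sites. Cacna2d1 encodes the alpha2delta1 subunit of voltage-gated calcium channels.

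Of 6993 SmcHD1 wt peaks in the whole list, 1671 lay on chromosome 5 and 152 in the window. All but 2 of the 152 fell into a pair of dense blocks when midpoints up to 50 kb apart were linked. The proximal block ran from chr5:14904040-15062324 (158.3 kb) and held 56 peaks. The distal block ran from chr5:15457822-15714453 (256.6 kb) and held 94 peaks. Between the blocks the reference has no sequence: the stretch chr5:15062667-15457666, 395.0 kb in length, is written as unknown bases. The last peak of the proximal block ended at 15062324 and the first of the distal block began at 15457822, so peaks stood right beside the gap on either side. Whether the blocks are joined across it cannot be told from these lists.

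**Figure D1:**
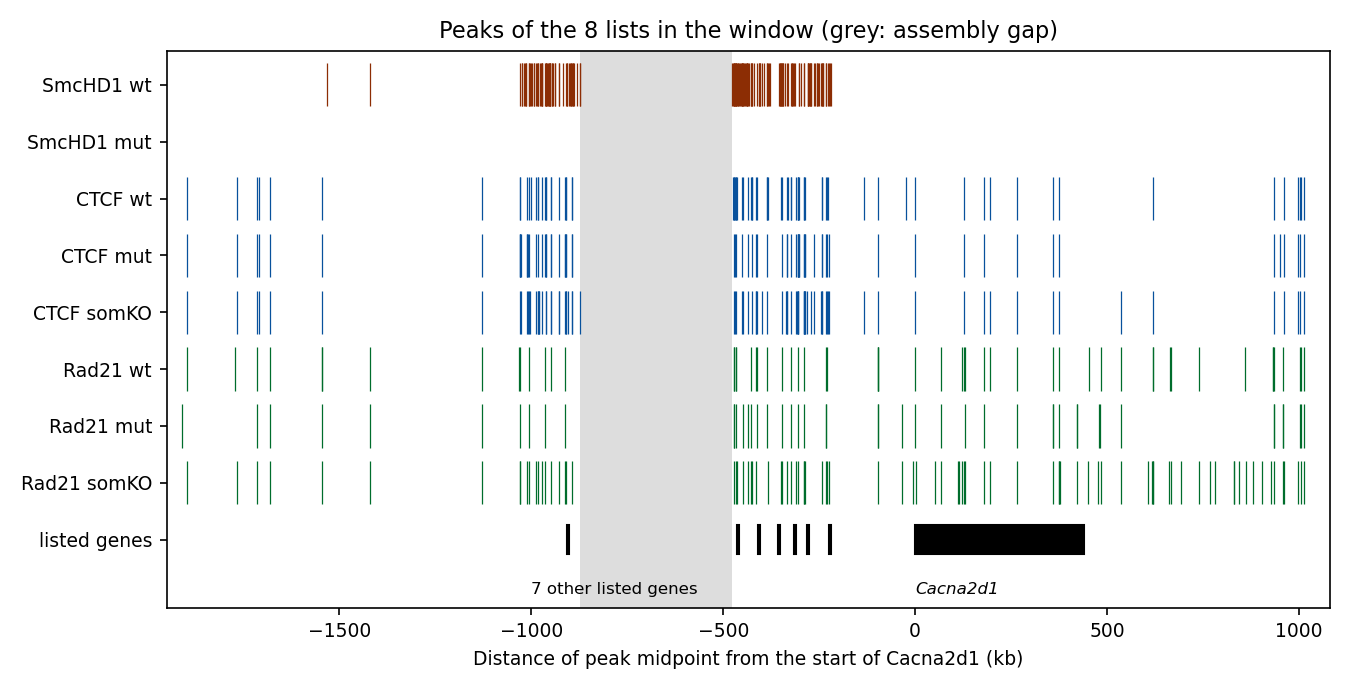
Midpoints of all peaks of the 8 lists in the window, in kb from the start of Cacna2d1 (position 0), 1 row per list, with the 8 listed genes below and the assembly gap in grey. The SmcHD1 wt row shows 2 lone peaks and 2 blocks of 56 and 94 peaks beside the gap, the SmcHD1 mut row is empty, and the CTCF rows are dense over the same blocks and go on across Cacna2d1.

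The Speer4-type promoters of the cluster are nearly the same sequence. Starts of 7 of the 8 listed genes were found in the RefSeq promoter table (GRCm38.p6, 250 bases before to 50 after the start), and 4930572O03Rik was not matched. Among the 6 Speer4-type promoters found, identity over the aligned bases was 97.2 to 99.1% in 15 pairs, with a median of 98%. SmcHD1 wt peaks covered some of them and not others. The promoters of Speer4c, Gm21190 and Speer4d are shown because they differ in this, with the bases under an SmcHD1 wt peak in capitals, and that of Cacna2d1 as the neighbour with no peak.
Speer4c, minus strand of chr5:15714222-15714521: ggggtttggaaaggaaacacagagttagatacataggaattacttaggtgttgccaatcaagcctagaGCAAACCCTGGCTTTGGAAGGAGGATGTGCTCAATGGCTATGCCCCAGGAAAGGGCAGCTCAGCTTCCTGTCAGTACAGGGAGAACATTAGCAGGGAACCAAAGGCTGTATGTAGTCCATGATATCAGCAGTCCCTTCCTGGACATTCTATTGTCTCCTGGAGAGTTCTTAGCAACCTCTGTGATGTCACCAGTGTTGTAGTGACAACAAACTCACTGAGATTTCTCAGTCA
Gm21190, minus strand of chr5:15529173-15529472: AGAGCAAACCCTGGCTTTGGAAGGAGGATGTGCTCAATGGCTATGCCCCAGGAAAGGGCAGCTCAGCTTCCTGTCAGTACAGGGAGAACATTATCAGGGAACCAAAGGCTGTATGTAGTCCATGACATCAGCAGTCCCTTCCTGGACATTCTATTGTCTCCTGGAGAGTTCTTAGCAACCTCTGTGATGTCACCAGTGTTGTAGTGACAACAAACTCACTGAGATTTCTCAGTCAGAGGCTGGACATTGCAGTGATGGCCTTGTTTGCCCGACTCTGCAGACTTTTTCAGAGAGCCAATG
Speer4d, plus strand of chr5:15618849-15619148: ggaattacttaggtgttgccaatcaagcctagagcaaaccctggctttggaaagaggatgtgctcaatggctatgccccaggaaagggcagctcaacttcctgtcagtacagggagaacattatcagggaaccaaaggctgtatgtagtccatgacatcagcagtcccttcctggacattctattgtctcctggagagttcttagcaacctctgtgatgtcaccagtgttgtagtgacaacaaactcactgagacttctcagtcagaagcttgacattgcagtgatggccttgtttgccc
Cacna2d1, plus strand of chr5:15934441-15934740: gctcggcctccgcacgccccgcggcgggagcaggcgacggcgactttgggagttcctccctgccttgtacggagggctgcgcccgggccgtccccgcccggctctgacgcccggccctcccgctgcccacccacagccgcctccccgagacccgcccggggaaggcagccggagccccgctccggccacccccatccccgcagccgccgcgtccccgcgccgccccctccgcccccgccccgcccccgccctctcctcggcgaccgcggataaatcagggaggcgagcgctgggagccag
The peak over Speer4c covered 232 of the 300 bases, with a score of 34. The peak over Gm21190 covered all 300, with a score of 45, and so did that over Gm21149 (score 71). The promoters of Speer4d, Gm17019, Gm21083 and Cacna2d1 had no base under an SmcHD1 wt peak. The score is the peak list's own column, read here as 10 times -log10 of the q-value from its lowest value of 13, and it was used only to rank peaks within a list. Since copies of 98% identity are hard to tell apart with short reads, and the handling of reads that match several places is not given in the sources used here, the copy to which each of these peaks belongs is uncertain.

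The Speer4-type genes are alike over their whole length. Between pairs of the 7 listed genes, identity was 95.7 to 98.4% (median 97.4% over 21 pairs), and a median of 99.5% of the first gene of a pair could be aligned. Against Speer4c, 4930572O03Rik and Speer4d had 98.2% identity each, Gm21083 and Gm21149 97.0%, Gm17019 96.8% and Gm21190 96.1%. Further Speer genes of chromosome 5 outside the blocks were less alike: 89.7% for Speer4b, 89.2% for Speer4f1, 89.1% for Speer4a, 88.5% for Speer4f2, 74.4% for Speer3 and 74.2% for Speer1.

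All 7 Speer4-type genes held at least 1 SmcHD1 wt peak midpoint in the gene body, and Cacna2d1 held none. Together the bodies and 1 kb promoters of the 7 genes held 16 of the 150 block peaks, which is 10.7% (95% Wilson interval 6.67 to 16.6%), and they make up 9.38% of the block sequence. Wilson intervals here cover counting error only. The share of sequence lay within the interval of the share of peaks.

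Speer4c (chr5:15709501-15714271, minus strand) held 3 peaks, with scores of 34, 82 and 68 at 51, 2373 and 3717 bp after its start, 1 of them touching an exon. 4930572O03Rik (chr5:15652286-15657059, minus strand) also held 3, with scores of 30, 28 and 71 at 1280, 1853 and 2543 bp after its start, 2 of them touching an exon. Gm21190 (chr5:15524456-15529222, minus strand) held 2 peaks in its body, both intronic, with scores of 63 and 58, beside the peak over its start. These 3 genes had their peaks in the first 4 kb and none at the annotated end.

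Gm21149 (chr5:15471703-15476523, minus strand) held body peaks with scores of 70 and 137, at 3087 and 4471 bp, and both touched exons. The score of 137 was the highest in any of the 7 genes. Gm21083 (chr5:15577333-15582078, plus strand) held 2 exonic peaks with scores of 43 and 38, at 1345 and 4487 bp. Gm17019 (chr5:15028950-15032998, minus strand), the only listed gene of the proximal block, held 1 exonic peak with a score of 65 at 1304 bp. Speer4d (chr5:15619064-15623864, plus strand) held 1 intronic peak with a score of 40 at 3027 bp. As listed, the peaks stood at different distances from the start in different copies, within the uncertainty of assigning reads to copies.

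With Gm9758, Speer4e and Gm10354, protein-coding genes of the same type in the proximal block (97.3%, 96.7% and 96.9% identical with Speer4c), the reference holds 10 such genes in the blocks. Gm9758 and Gm10354 were added after the values had been seen. SmcHD1 wt peaks covered the start of Gm9758 (score 168) but not those of Speer4e and Gm10354. Within 3 kb on either side of the 10 starts lay 25 SmcHD1 wt peaks, 14 before and 11 after the start, and each of the 10 genes had at least 1. At the density of the whole blocks, the same 60 kb would hold 21.7, so the number near the starts was close to that over all block sequence. In the same intervals the lists of CTCF and Rad21 held 0 peaks in any genotype, where the density of the blocks would give 8.24, 7.37 and 8.96 for CTCF and 2.75, 2.46 and 5.06 for Rad21 in wt, mut and somKO. The CTCF midpoint nearest to a start was 4.47 kb away in wt, 4.59 kb in mut and 3.89 kb in somKO, and the Rad21 midpoint nearest to a start was 6.78, 7.73 and 4.48 kb away. The distance of 3 kb was chosen after seeing the plot of peaks around the starts, so the 0 for CTCF and Rad21 is a description and no test. The 10 genes are also near-identical copies and not independent.

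**Figure D2:**
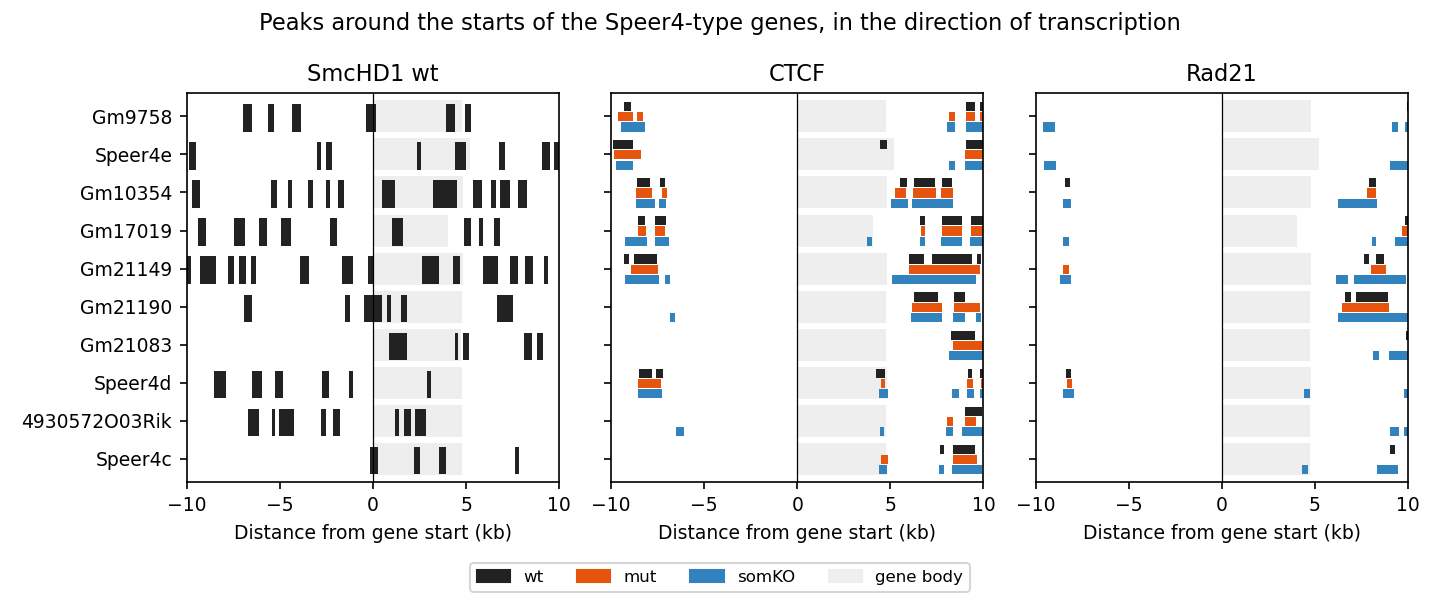
Extent of SmcHD1 wt, CTCF and Rad21 peaks from 10 kb before to 10 kb after the starts of the 10 Speer4-type genes of the blocks, in kb along the direction of transcription, with the gene body in grey and the genotype by colour for CTCF and Rad21. SmcHD1 wt peaks lie on both sides of the starts, whereas the CTCF and Rad21 peaks lie beyond 3 kb from them, near gene ends and in the spacers.

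Speer-named genes also lie elsewhere. Of 15 genes whose symbol begins with Speer, 10 start outside the blocks. None of the 10 (Speer1, Speer3, Speer4a, Speer4b, Speer4f1 and Speer4f2 on chromosome 5, Speer9-ps1 on 7, Speer5-ps1 on 10, Speer6-ps1 on 13 and Speer2 on 16) had an SmcHD1 wt peak in its body or 1 kb promoter. The rest of chromosome 5 held 10.5 such peaks per Mb, so that genes of this length would seldom hold one, and the 0 is near the background. Of these, 1 had peaks within 10 kb: Speer4f1, at chr5:17476098-17480936, with 2, the nearer of them 6.01 kb before its start. The nearest peak to the start of Speer4f2 was 95.9 kb away, to Speer3 127.2 kb and to Speer4b 177.9 kb. Of the promoters outside the blocks, that of Speer4b was 98% and that of Speer4a 96.5% identical with the promoter of Speer4c over the aligned bases. Promoters about as alike as those of the blocks thus stood elsewhere without a peak.

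Inside the blocks, SmcHD1 wt peaks followed each other at a median distance of 1812 bp (quartiles 911.8 and 3810 bp, 148 distances). The median was 1969 bp in the proximal and 1659 bp in the distal block. On the rest of chromosome 5 it was 8865 bp over 1517 distances. Of the 148 distances, 44 (29.7%) were below 1 kb, 39 (26.4%) between 1 and 2 kb, 41 (27.7%) between 2 and 5 kb and 24 (16.2%) at 5 kb or above. Short distances below 2 kb were thus the commoner ones. The widest, 23317 bp, lay in the distal block between midpoints 15555361 and 15578678, with its distal end inside Gm21083, and the next was 10966 bp.

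Peaks of the blocks were somewhat wider and higher in score than those on the rest of chromosome 5, but did not reach the top of the list. Their median width was 374.5 bp (186 to 1594 bp), beside 299.0 bp on the rest of chromosome 5, and together they covered 16.3% of the block sequence. Their median score was 57.5, beside 36.0 on the rest of chromosome 5, and 89 of 150 had a score of at least 50. Their median percentile in the whole SmcHD1 wt list was 64.6, and the highest reached 97.1, so none was among the top 1% of the list. The blocks held 361.5 SmcHD1 wt peaks per assembled Mb, against 10.5 on the rest of chromosome 5.

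**Figure D3:**
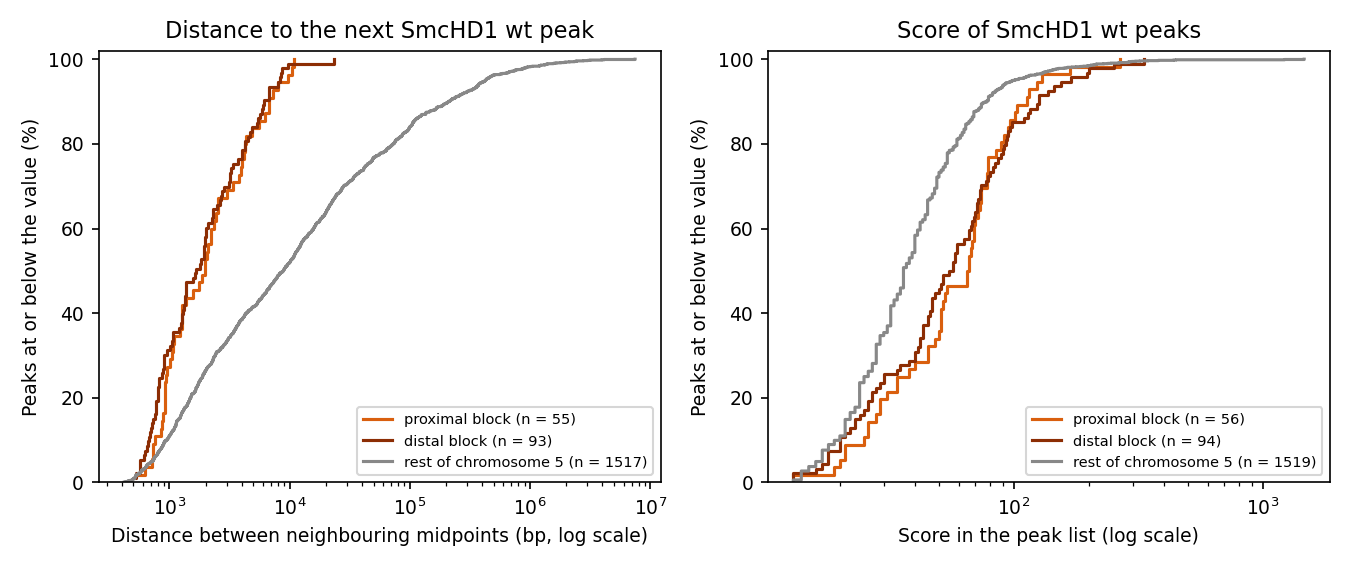
Cumulative share of SmcHD1 wt peaks by the distance to the next midpoint (left, bp) and by score (right), both on log axes, for the proximal block, the distal block and the rest of chromosome 5. The curves of the blocks lie close to each other, at a median distance of 1969 and 1659 bp, and to the left of the rest of the chromosome (8865 bp).

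The highest score, 333, belonged to a peak at chr5:15541102-15542085 in the introns of 2 overlapping antisense non-coding genes, Gm21847 and Gm30613. The next, 266, at chr5:15039895-15040490, and the third, 252, at chr5:15483998-15484317, lay between genes. Outside the blocks, the peak at chr5:14514686-14515608, with a score of 208, touched the start of Pclo, which encodes the presynaptic protein piccolo. The other lone peak, at chr5:14401596-14401878, had a score of 59. None of the 3 highest peaks of the blocks lay in a Speer4-type gene.

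By the order gene body, 1 kb promoter, interval, 67 of the 150 block peaks lay in gene bodies, 3 in promoters and 80 in intervals. The share in bodies and promoters was 46.7% (38.9 to 54.6%), and such sequence makes up 52.0% of the blocks. Most of the peaks in bodies were in long antisense transcripts: Gm21847 held 38, Gm30613 18 and Speer4cos, which runs antisense to Speer4c, 13. Speer8-ps1, a transcribed pseudogene of the proximal block (chr5:14945294-14978541) that is annotated in RefSeq and was not among the GENCODE genes used for placing peaks, held 15. Its exons were not read, so whether these peaks touch an exon is not known. Its peaks were counted as intervals unless they lay in a GENCODE gene. Antisense bodies held 61 of the 150 peaks (40.7%) and make up 45.5% of the block sequence. With protein-coding genes alone, 22 of 150 peaks (14.7%, 9.89 to 21.2%) were in bodies or promoters, which make up 13.7% of the blocks. The Wilson intervals of these 3 shares (33.1 to 48.7% for antisense bodies) all held the share of sequence.

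The distal boundary was sharp on the scale of the peak spacing. The last SmcHD1 wt peak, chr5:15713987-15714453 with a score of 34, was the one over the start of Speer4c, 220.5 kb before the start of Cacna2d1. From there to the end of the window, 0 SmcHD1 wt peaks were listed: none in the 220.2 kb before Cacna2d1, none in its 439.8 kb body (chr5:15934691-16374511) and none in the 625.5 kb beyond. The next peak stood at chr5:17468771-17469329, with a score of 144, outside the window. Peaks were sparse on both sides of the window too. The 1 Mb bands from 10 to 13 Mb held 0 each and that from 13 to 14 Mb held 1. The band from 17 to 18 Mb held 3, and those from 18 to 21 Mb 0 each. The 0 over Cacna2d1 is thus near the local background. On the proximal side the block began at chr5:14904040-14904371, with a score of 53, and the nearest peak before it was that at the start of Pclo. The last peak before the window, chr5:13664345-13664567, had a score of 33. The window from 15 to 16 Mb held 111 peaks, the most of any 1 Mb window of chromosome 5, followed by 101 at 128 to 129 Mb and 88 at 119 to 120 Mb.

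The mut list of SmcHD1 held 0 peaks in the window, which allows a share of up to 1.23% of its 244 peaks by counting error. Of those 244, 21 were on chromosome 5, and the nearest, chr5:30888046-30888540, was 15.2 Mb from the end of the distal block. The rest of chromosome 5 held 0.145 mut peaks per Mb, so a count of 0 in the window is near the background of that list. Over the whole list, 163 of 6993 SmcHD1 wt peaks (2.33%) overlapped a mut peak by at least 1 bp, and 0 of the 152 of the window did. The peaks of the cluster were thus absent from the list of the cells without SmcHD1, at the depth of that list, which is unknown.

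Nearly all SmcHD1 peaks of the blocks lay on repeated sequence. A further match of at least 95% identity over at least 80% of the peak was found on chromosome 5 for 144 of 150 (96.0%, 91.5 to 98.2%). Over all SmcHD1 wt peaks of chromosome 5 the share was 14.9%, and outside the window it was 6.85% (104 of 1519). CTCF wt peaks of the blocks had the same property, 56 of 57, and so did 17 of 19 Rad21 wt peaks, against 0 of 24 and 1 of 38 in the window outside the blocks. Repeat-masked bases made up 40.2% of the SmcHD1 peaks of the blocks and 49.0% of the block sequence. Their GC content was 43.1%, beside 52.6% in SmcHD1 peaks of the rest of chromosome 5. No depth or copy number is held in the lists, so that the part of repeated sequence in the number of peaks was not tested.

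A match was not always under a listed peak. The median block peak had 7 further matches, and 910 matches lay inside the blocks when summed over peaks. Of these, 346 (38%) were under another SmcHD1 wt peak, and 124 of 150 peaks had at least 1 such match. SmcHD1 wt peaks cover 16.3% of the block sequence, and the share of 38% was not tested against a background. Reads are hard to place among such copies, so a match without a listed peak need not be unbound. The peak over the start of Speer4c matched the starts of the 9 other Speer4-type genes at 95.7 to 98.7% identity, and 3 of the 9 matches were under a peak. For the peak over the start of Gm21190 the number was 4 of 9. Only 6 block peaks had no further match, among them the highest of the cluster.

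CTCF was also dense in the blocks, and in all 3 genotypes. The CTCF list of wt had 57 peaks in the blocks, that of mut 51 and that of somKO 62, or 137.4, 122.9 and 149.4 per assembled Mb. The rest of chromosome 5 held 35.0, 31.4 and 42.1 per Mb, so the blocks were 3.93, 3.92 and 3.55 times as dense in the lists of the 3 genotypes. With lists of equal length the numbers were 50, 51 and 41, so the order of the genotypes depended on list length. In the window outside the blocks CTCF was sparse, with 11, 9.59 and 10.5 peaks per Mb.

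Rad21 followed with fewer peaks. The blocks held 19 in wt, 17 in mut and 35 in somKO, or 45.8, 41.0 and 84.4 per Mb, which is 1.25, 1.26 and 1.66 times the density on the rest of chromosome 5. Every Rad21 peak of the blocks overlapped a CTCF peak of its genotype, 19 of 19, 17 of 17 and 35 of 35, against 59.3%, 58.8% and 55.4% on the rest of the chromosome. In the other direction, 18 of 57 CTCF wt peaks of the blocks overlapped Rad21 (31.6%, 21 to 44.5%), beside 63.5% (62.1 to 64.8%) outside the window. In mut the share was 31.4%, and in somKO it was 54.8% (42.5 to 66.6%), beside 69.9% (68.7 to 71.0%) outside. The share in the blocks lay below that outside the window in all 3 genotypes, with intervals that do not overlap (20.3 to 45.0% against 61.2 to 64.0% in mut). Block peaks are mostly copies of each other, and the genotypes share many sites, so the intervals take as independent what is not. Each genotype has 1 merged list, so none of these differences has a replicate check, and no test was made.

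**Figure D4:**
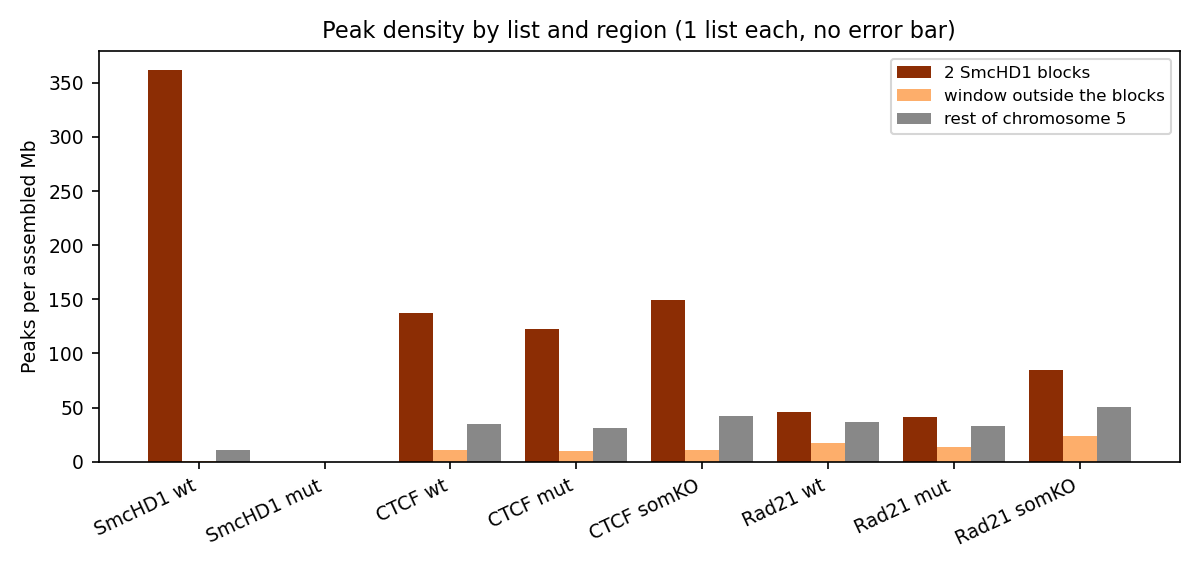
Peaks per assembled Mb in the blocks, in the window outside them and on the rest of chromosome 5, for each of the 8 lists; each bar is 1 merged list and has no error bar. SmcHD1 wt stands at 361.5 per Mb in the blocks, CTCF between 122.9 and 149.4, and Rad21 at 45.8 and 41.0 in wt and mut but 84.4 in somKO.

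SmcHD1 and CTCF peaks met in part. Of 150 SmcHD1 wt peaks of the blocks, 50 overlapped a CTCF wt peak (33.3%, 26.3 to 41.2%), beside 20.4% over the whole SmcHD1 list and 24.4% (22.3 to 26.6%) on the rest of chromosome 5. With Rad21 wt, 16 of 150 overlapped (10.7%, 6.67 to 16.6%), beside 25.9% over the whole list and 28.4% (26.2 to 30.8%) on the rest of the chromosome. CTCF wt peaks covered 11.6% of the block sequence and were 3.93 times as dense there as on the rest of the chromosome. The shares for CTCF thus have different backgrounds, and an excess of overlap beyond density was not tested. Seen from CTCF, 38 of 57 block peaks overlapped SmcHD1 (66.7%), beside 329 of 5085 (6.47%) on the rest of chromosome 5. In the window outside the blocks, 0 of 24 did. The blocks were defined by SmcHD1 wt peaks, so these contrasts follow from how they were drawn. Since SmcHD1 and Rad21 chromatin was fixed with an additional long crosslinker and CTCF chromatin with formaldehyde alone, shares for different antibodies are not on the same footing.

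Some of the CTCF sites of the blocks, among them the 3 highest in wt, were copies of each other. They were found through a core of the CTCF motif, read as CCA, 2 free bases, AG, 2 free bases and GGC, and searched on both strands. The blocks hold 18 such cores, 13 on the plus and 5 on the minus strand, and 12 of them were under a CTCF peak, the same 12 sites in wt, mut and somKO. On the rest of chromosome 5, 29.4% of 9635 cores were under a CTCF wt peak. Of all stretches of 590 bp in the blocks, the median width of a CTCF wt peak there, 2.56% held a core. Of the CTCF wt peaks of the blocks, 22.8% (13.8 to 35.2%) did, beside 48.8% (47.4 to 50.2%) of those on the rest of chromosome 5. The 12 cores with a peak fell into a pair of families by their flanks, and these were defined after seeing the sequences. They are shown with the core in capitals and 15 bases on each side, the first as it stood inside Speer4cos and in Gm21847, the second as it stood in both blocks.
First family, plus strand of chr5:15703060-15703101: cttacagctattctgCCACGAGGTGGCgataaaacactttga
First family, minus strand of chr5:15588460-15588501: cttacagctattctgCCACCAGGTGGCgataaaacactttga
Second family, plus strand of chr5:15006912-15006953: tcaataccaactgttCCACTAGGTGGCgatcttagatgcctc
Second family, plus strand of chr5:15691277-15691318: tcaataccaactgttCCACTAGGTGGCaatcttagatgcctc
The first family had 7 sites in the blocks, 5 of them identical over the 42 bases shown, and 1 more just before the proximal block. The second family had 5 sites, 4 of them identical. Neither had a further site on chromosome 5 within 6 differences of the commonest sequence.

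All 7 sites of the first family carried CTCF and Rad21 peaks in wt, mut and somKO, and 5 of them an SmcHD1 wt peak. The site inside Speer4cos, 231.6 kb before the start of Cacna2d1, had the highest CTCF score of the blocks in each genotype, 15580 for wt, 24099 for mut and 23310 for somKO, at percentile 99.8 of the wt list and 99.9 of the other two. Its Rad21 peak scored 2899 in wt, 3803 in mut and 12997 in somKO, which placed it at ranks 1730, 1279 and 59. This was the strongest site for both proteins in all lists of the cluster. The next CTCF wt peaks, with scores of 8406 and 8084, were further sites of the first family inside Gm21847. In mut and somKO the next places were taken by 2 regions without a core, whose midpoints lay in no GENCODE gene or promoter. They were near chr5:14971473-14972740 (16134 in mut, 14805 in somKO) and chr5:15459730-15464477 (14567 in mut, 16038 in somKO). The former lay inside Speer8-ps1, and the latter reached into the antisense gene Gm43391. The latter also held a further match, by the rule used above, of the CTCF wt peak inside Speer4cos. It was thus partly a copy of that site. For Rad21, 2 more sites of the first family inside Gm21847 came next in wt (1649 and 1576) and in mut (1910 and 1861). In somKO such a site (7121) came next, followed by the region at chr5:15460397-15464425 (6937).

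The second family carried CTCF in all genotypes but Rad21 in somKO alone, at 5 of 5 sites, 3 of which had an SmcHD1 wt peak. Among the 2208 cores of chromosome 5 under CTCF peaks in all 3 genotypes, 12.9% had Rad21 in somKO alone and 57.0% in all 3. The sites of a family are near-identical copies, among which reads are hard to place, so they are not independent observations. The Rad21 somKO scores at the 5 sites were 118, 771, 730, 232 and 935, at percentiles 43.0 to 77.9 of that list. All 5 remained when the Rad21 lists were brought to equal length by score. The CTCF score percentiles at these sites were 57.5 to 94.8 in wt, 57.9 to 98.9 in mut and 83.4 to 99.4 in somKO. The somKO lists merge 4 libraries and 2 clones each. Those of wt and mut hold 1 clone, with 2 libraries for Rad21 and 3 for CTCF. Clone, depth and genotype therefore cannot be told apart.

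**Figure D5:**
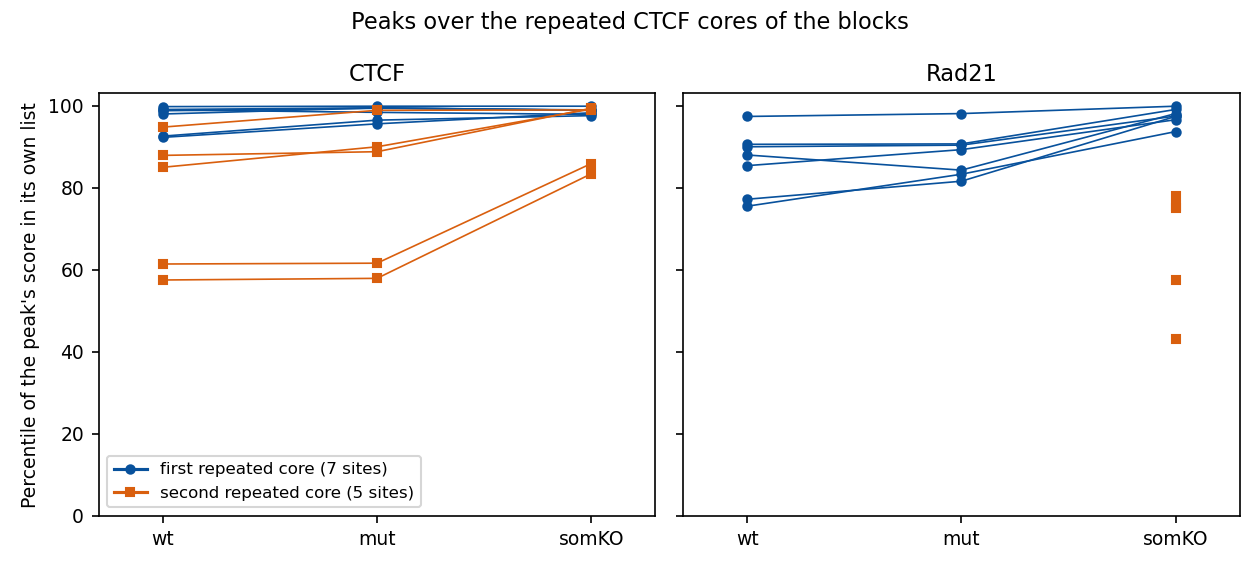
Percentile of the peak's score within its own list at the repeated CTCF cores of the blocks, for CTCF (left) and Rad21 (right), in wt, mut and somKO; each line is 1 site, with 7 sites of the first and 5 of the second repeated core. All 12 sites have a CTCF value in every genotype, and for Rad21 the second core has points under somKO only.

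Sites listed in every genotype could be compared by their rank within each list. Of 39 CTCF sites of the blocks listed in all 3 genotypes, 35 had a higher percentile in mut than in wt and 35 in somKO. On chromosome 5 outside the window, 31.0% of 3568 such sites were higher in mut and 76.1% in somKO. The median difference was 3.17 percentile points in mut in the blocks and -4.10 outside the window. In somKO it was 13.21 in the blocks and 4.25 outside. For Rad21, 9 of 14 sites of the blocks were higher in mut and 14 of 14 in somKO, beside 39.3% and 82.7% of 3053 sites outside the window, with median differences of 0.52 and 15.77 in the blocks and -2.09 and 5.82 outside. In the window outside the blocks, 8 of 19 CTCF sites and 5 of 18 Rad21 sites were higher in mut, and 13 and 15 in somKO. The sites of the blocks are copies of each other and are not independent. Wt and mut are single clones, somKO comes from another parental clone, and the lists hold no copy number. Clone, copy number of the repeated sequence and genotype therefore cannot be told apart.

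CTCF peaks gained or lost in mut within the blocks were weak. A peak without any shared base with the wt list of its antibody was counted as gained, and a wt peak without any shared base with the other genotype as lost. In mut, 9 of 51 CTCF peaks of the blocks were gained (17.6%), beside 16.8% over the whole list, and 7 of 57 were lost (12.3%), beside 19.7%. In somKO, 21 of 62 were gained (33.9%), beside 22.6%, and 5 of 57 lost (8.77%), beside 7.63%. With lists of equal length 7 were gained in somKO, and with an overlap of 50% of both peaks 25 were lost in somKO and 19 in mut. The scores of the CTCF peaks lost in mut were 17 to 61 and those of the peaks gained in mut 17 to 160, below the median scores of the blocks (805.0 in wt, 1172 in mut). Shares near the background of the whole list are no result about the cluster.

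For Rad21, 3 of 17 peaks were gained in mut (17.6%), beside 27.2% over the whole list, and 4 of 19 were lost (21.1%), beside 28.5%. In somKO, 19 of 35 were gained (54.3%, 38.2 to 69.5%), beside 37.8%, and 0 of 19 were lost, beside 7.22%. When an overlap of 50% of both peaks was asked for, 32 were gained and 16 lost in somKO, so these numbers rest on the rule of 1 bp. The highest gained peak of Rad21 was the same region in both: chr5:15498779-15499689 in mut, with a score of 540, and chr5:15497936-15500596 in somKO, with a score of 1807, between genes of the distal block. Of the 19 Rad21 peaks gained in somKO, 5 held the core of the second family, and a peak each lay inside Speer4d (653) and Speer4c (186).

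At the ends of Speer4-type genes, near-identical sequence was listed differently by genotype. The CTCF peak at the end of Speer4d scored 895 in wt, 825 in mut and 2066 in somKO, with Rad21 (653) in somKO alone. The CTCF wt peak there matched the ends of 4930572O03Rik at 97.4% and Speer4c at 99.2% identity. At the end of Speer4c no CTCF peak was listed in wt, but 1 was in mut (160) and in somKO (705), with Rad21 (186) in somKO. At 4930572O03Rik a CTCF peak was listed in somKO alone (342), as at Gm17019 (302). A broad CTCF peak of somKO (8963) reached to within 500 bp of the end of Gm21149. The same site was listed in wt (4087) and mut (7178), but there the peaks stopped short of that distance. At Gm10354 the peaks of mut (80) and somKO (207) reached to within 500 bp of the end, and that of wt (51) at the same site did not. At these ends the lists thus differed in the reach of a shared peak. At Speer4e a CTCF peak was listed in wt alone, with a score of 52. Of the 7 listed genes, Gm21190 and Gm21083 had no CTCF peak within 500 bp of the annotated end in any genotype. None of these ends held a core of the motif.

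Between the distal block and Cacna2d1 both proteins had a shared site. At chr5:15838087-15838523, with its midpoint at -96.4 kb from the start of Cacna2d1, a CTCF peak stood in every genotype (score 2389 in the wt list, 4387 in that of mut, 3179 in that of somKO) and held a core of the motif. Rad21 overlapped it in each genotype, with scores of 3137, 3646 and 4850. Weak CTCF peaks at chr5:15800295-15800494 (92) and chr5:15911395-15911719 (63) were listed in wt, the former also in somKO (50) and neither in mut. No SmcHD1 peak was listed at any of them.

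Cacna2d1 itself carried CTCF and Rad21 and no SmcHD1. Over its body 7 CTCF peaks were listed in wt, with 6 in mut and 7 in somKO. For Rad21 the numbers were 10, 10 and 16. A Rad21 peak covered its start in each genotype, with scores of 626, 606 and 1112. A weak CTCF peak stood 0.683 kb after the start in wt (score 21), 0.445 kb in mut (108) and 0.467 kb in somKO (46). The number of CTCF peaks over the gene thus moved by at most 1 between the lists, and Rad21 had more peaks in the longer somKO list.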

How the data were processed

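By the study's methods, the authors aligned reads with bowtie2 to the mouse genome mm10 with strain variants masked, merged the replicates of a group and called narrow peaks with MACS2 at a q-value below 0.05 on reads of both alleles. Versions and the use of inputs are not given in the sources used here. The deposited BED files hold positions and a score per peak. The lists hold no read counts, so the depth is unknown, and the number of merged libraries differs between lists. The reference is that of another strain than the cells.

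Peaks were placed by midpoint with GENCODE M21 genes, in the order body, 1 kb promoter, interval. Overlap means at least 1 bp. Matches were found with BLAST 2.17.0 on GRCm38, promoters were aligned with Biopython 1.88, and figures were drawn with matplotlib 3.10.9 in Python 3.11.15. Shares carry 95% Wilson intervals. No p-value was computed, because each group has 1 list. The list functions were tested on simulated data. The genes named are the 8 listed ones, all genes whose symbol begins with Speer, the 3 GENCODE genes of the window with most SmcHD1 wt peaks and the coding flanks, beside CTCF and Rad21 peaks gained or lost in the blocks or among the 3 highest there. Members and lists were chosen with earlier results of these data known. Libraries for H3K27me3 and inputs were left out and not analysed here.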

Additional observations from a re-analysis of the deposited data

Results flagged for a closer look

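Rad21 peak numbers in the window outside the blocks moved apart between the genotypes without SmcHD1 when set against the rest of chromosome 5 in the same lists. Wt had 38 such peaks. Mut had 30, a log2 change of -0.34 beside -0.17 on the rest of the chromosome, and somKO had 53, a change of 0.48 beside 0.47. The difference between somKO and mut, each relative to the rest of the chromosome, was 0.18 on the log2 scale, and it was not tested, since each genotype has 1 list. With lists of equal length the relative changes were -0.18 in mut and -0.17 in somKO, on the same side.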

How the results depend on the processing

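Of 43 alternatives, 27 were labelled as keeping the result and 16 as moving it. The former label does not mean an unchanged value. Under it, CTCF wt peaks of the blocks went from 57 to 44 with scores of at least 50. CTCF peaks gained in somKO went from 21 to 30 with an overlap of 50% of both peaks. Some moves, in turn, were small. With scores of at least 50, the window held 91 SmcHD1 wt peaks instead of 152, the median spacing was 3204 instead of 1812 bp and the boundary lay 222.8 instead of 220.5 kb before Cacna2d1. Linking at 20 kb split the distal block and gave a spacing of 1783 bp. With protein-coding genes only, 15.1% instead of 46.7% of the window's peaks were in bodies or promoters. Midpoints within 500 bp gave a share of SmcHD1 peaks with CTCF of 24.7% instead of 33.3%. An identity of at least 98% left 66.7% instead of 96.0% of block peaks with a match. With lists of equal length, CTCF somKO peaks of the blocks fell from 62 to 41, below 50 in wt and 51 in mut, CTCF gained in somKO from 21 to 7 and lost in mut from 7 to 4, and lost in somKO rose from 5 to 8, whereas Rad21 somKO kept 32 of 35. Asking for an overlap of 50% of both peaks gave 14 instead of 9 CTCF peaks gained in mut, 19 instead of 7 lost in mut and 25 instead of 5 lost in somKO. It gave 32 instead of 19 Rad21 peaks gained and 16 instead of 0 lost in somKO. The cause of these moves was not tested. No paired analysis was possible because each genotype has 1 merged list, and for the same reason no replicate could be left out.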
